A study of Homo sapiens with 6 samples.

Results

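Long intergenic non-coding RNAs (LINC genes) were measured in the human osteosarcoma lines KHOS and U-2OS. Of 841 LINC genes with a probe set on the U133 Plus 2.0 array, 112 had a log2 value of 6 or more on at least 1 of the 6 arrays and are described here. They were thus chosen by measured values, the highest over all arrays. A probe set is a group of short oligonucleotides that together give 1 value for a transcript. Each gene was represented by its probe set with the highest mean, and only probe sets annotated to a single LINC symbol were used. The 112 genes were 13.3% of the LINC genes measured, against 59.5% of all 19775 genes on the array that reached 6 in the same way. The other 729 LINC genes stayed below 6 on every array.

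KHOS is an osteosarcoma line derived by transformation with a Kirsten sarcoma virus, and U-2OS is another osteosarcoma line. Each line gave 3 arrays: a control, cells given the vector miRSelect pEP-miR-Null, and cells given miRSelect pEP-miR-1, which carries miR-1. Transfection lasted 48 hours and used Lipofectamine LTX with Plus Reagent. The labels do not say whether control cells were given reagent alone. RNA of 3 flasks was pooled for each array, so there was 1 array per line and treatment and the spread between flasks was not measured. The question was how the lines differed and what transfection and miR-1 changed, read here for the LINC genes. In these bulk samples, fewer cells expressing a transcript and less RNA per cell cannot be told apart.

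Long intergenic non-coding RNAs are transcribed from loci between protein-coding genes, are mostly spliced and polyadenylated, and do not encode proteins of known function. Many are made at low levels and in few cell types, and several act at chromatin or bind other RNAs or proteins. LINC-PINT is a transcript induced by p53 that interacts with the Polycomb repressive complex PRC2. LINC00520 has been described downstream of Src and STAT3 signalling in breast cells, and LINC00973 as a transcript that rises in cancer cells given cytotoxic drugs. miR-1 is a microRNA of muscle that pairs with its target transcripts through its seed, bases 2 to 8.

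The mature miR-1 sequence is shown because the miR-1 vector was made to supply it, with the seed in capitals, from RefSeq.
hsa-miR-1-3p: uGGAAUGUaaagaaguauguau

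Promoter windows are shown for 4 genes whose vector arrays stood apart from control, described further on, and for which a window was found; LINC00520 and LINC00973 had none. LINC-PINT and LINC02806 were higher on the vector arrays of both lines, and LINC01516 and LINC03002 on those of U-2OS. Each window runs from 250 bases before to 50 after an annotated start, in the RefSeq annotation of GRCh38.p14, read 5′ to 3′ on the gene's strand. The LINC-PINT window lies inside that gene, not at its 5′ end, which is 169 bases from the protein-coding gene MKLN1. It overlaps the window of LINC00513, a gene that ends 188148 bases from MKLN1. The coordinates are chr7:130913261-130913560 on the minus strand for LINC-PINT and chr1:148279018-148279317 on the plus strand for LINC02806. They are chr10:25112808-25113107 on the plus strand for LINC01516 and chr6:134539956-134540255 on the minus strand for LINC03002. Capitals mark matches, on either strand, to 8 motifs: the TATA box TATAAA, the CCAAT box CCAAT, the GC box GGGCGG, the E-box CACGTG, the AP-1 motif TGANTCA, the motif of ATF4 with C/EBP TGATGNAA, the CRE motif TGACGTCA and the heat shock motif GAANNTTC.
LINC-PINT: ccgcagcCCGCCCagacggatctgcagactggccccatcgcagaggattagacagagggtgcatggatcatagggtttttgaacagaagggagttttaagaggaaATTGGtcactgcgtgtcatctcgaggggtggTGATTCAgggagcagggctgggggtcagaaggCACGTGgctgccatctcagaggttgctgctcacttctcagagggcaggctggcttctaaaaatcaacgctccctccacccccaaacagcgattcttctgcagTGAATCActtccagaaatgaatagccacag
LINC02806: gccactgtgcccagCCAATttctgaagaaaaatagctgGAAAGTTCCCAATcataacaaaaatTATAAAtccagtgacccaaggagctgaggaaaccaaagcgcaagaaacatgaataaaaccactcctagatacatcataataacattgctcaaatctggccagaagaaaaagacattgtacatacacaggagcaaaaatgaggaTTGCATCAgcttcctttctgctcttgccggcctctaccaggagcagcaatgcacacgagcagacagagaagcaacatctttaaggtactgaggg
LINC01516: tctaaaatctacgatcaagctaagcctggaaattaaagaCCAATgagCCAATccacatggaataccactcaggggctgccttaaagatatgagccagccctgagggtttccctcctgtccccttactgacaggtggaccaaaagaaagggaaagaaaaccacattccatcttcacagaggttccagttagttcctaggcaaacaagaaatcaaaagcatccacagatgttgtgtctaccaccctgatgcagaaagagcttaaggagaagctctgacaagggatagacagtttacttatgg
LINC03002: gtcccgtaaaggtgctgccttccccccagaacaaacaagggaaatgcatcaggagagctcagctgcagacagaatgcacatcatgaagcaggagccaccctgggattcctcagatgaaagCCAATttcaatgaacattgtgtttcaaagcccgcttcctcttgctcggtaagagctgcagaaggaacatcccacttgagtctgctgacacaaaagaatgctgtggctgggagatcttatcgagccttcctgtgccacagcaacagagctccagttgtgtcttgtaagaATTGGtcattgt

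All 4 windows hold the CCAAT motif. The LINC-PINT window also holds the GC box, the E-box and the AP-1 motif. The LINC02806 window holds the TATA box, the ATF4 motif and the heat shock motif, which lies directly before a CCAAT box. Promoter windows were found for 90 of the 112 genes. CCAAT was present in 45 of these (50%), against 34.6% of 35116 promoter windows of the same length. TATAAA was in 13.3% of the 90 against 11.5% of all windows, GGGCGG in 44.4% against 45%, and CACGTG in 11.1% against 7.26%. TGANTCA was in 12.2% against 7.71% and GAANNTTC in 11.1% against 6.77%. TGATGNAA was in 3.33% against 3.62%, and TGACGTCA in 1.11% against 1.85%. Median GC content was 58.17% in the windows of the 90 genes and 58.67% in all windows. These matches describe letters in the window and were not tested as binding sites.

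The arrays of a line resembled each other more than those of the other line, with correlations over all probe sets of 0.978 to 0.996 within a line and 0.910 to 0.937 between lines. The lines expressed mesenchymal genes, with 5 of 6 markers at 6 or more on all arrays of each line. Of 8 osteoblast markers, 3 reached that level on all arrays of each line, but not the same 3. They were COL1A1, SPARC and RUNX2 in KHOS, and COL1A1, SPARC and SPP1 in U-2OS. RUNX2 was at 8.98, 9.85 and 9.83 across KHOS (control, miR-null, miR-1) and 6.74, 4.72 and 4.23 across U-2OS. COL1A2, ALPL, SP7 and IBSP did not reach the level of 6 on any array. Markers of endothelial and skeletal muscle cells did not reach it on all arrays of either line (0 of 4 each), and those of blood cells did for 1 of 4, HBB. Epithelial markers did for 1 of 5 in KHOS (EPCAM) and 0 of 5 in U-2OS. Values of weakly measured probe sets were slightly higher on the U-2OS vector arrays: the median of the 729 LINC genes below 6 was 3.96 on the control, 3.94 on the miR-null and 3.88 on the miR-1 array of KHOS. It was 4.02, 4.09 and 4.18 on the matching U-2OS arrays. The spread of values over all probe sets was narrower on those arrays too, with an interquartile range of 2.84 and 2.75 on the U-2OS vector arrays against 3.07 to 3.35 on the other 4. The mean of the 18 spike-in control probe sets was 9.76, 10.13 and 9.93 across KHOS and 10.81, 11.33 and 11.65 across U-2OS. The 28S ribosomal RNA control at the 5′ end read 13.68, 14.07 and 14.49 across KHOS and 13.79, 14.58 and 14.86 across U-2OS, higher on the vector arrays of each line. The part of these shifts in the results below was not tested.

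More of the LINC genes reached the level of 6 in U-2OS than in KHOS. In KHOS, 49 of the 112 had a value of 6 or more on the control array, 52 with miR-null and 50 with miR-1. On the matching U-2OS arrays 77, 84 and 97 did. The level of 6 was reached in both lines by 50 genes and on all 6 arrays by 40. It was reached in U-2OS alone by 55 genes, 26 of them through the vector arrays only. It was reached in KHOS alone by 7: LINC01003, LINC01096, LINC00886, LINC03014, LINC02806, LINC01537 and LINC00622. A single array carried 19 of the 112 genes over the threshold, and 11 of these were carried by the U-2OS miR-1 array. These counts follow from the rule that chose the genes and are given as a description. Just inside the threshold, the highest values of LINC01341, LINC00920 and LINC02806 were 6.016, 6.018 and 6.021, and just outside it the highest values of the next 3 LINC genes were 5.998, 5.998 and 5.984.

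**Figure D1:**
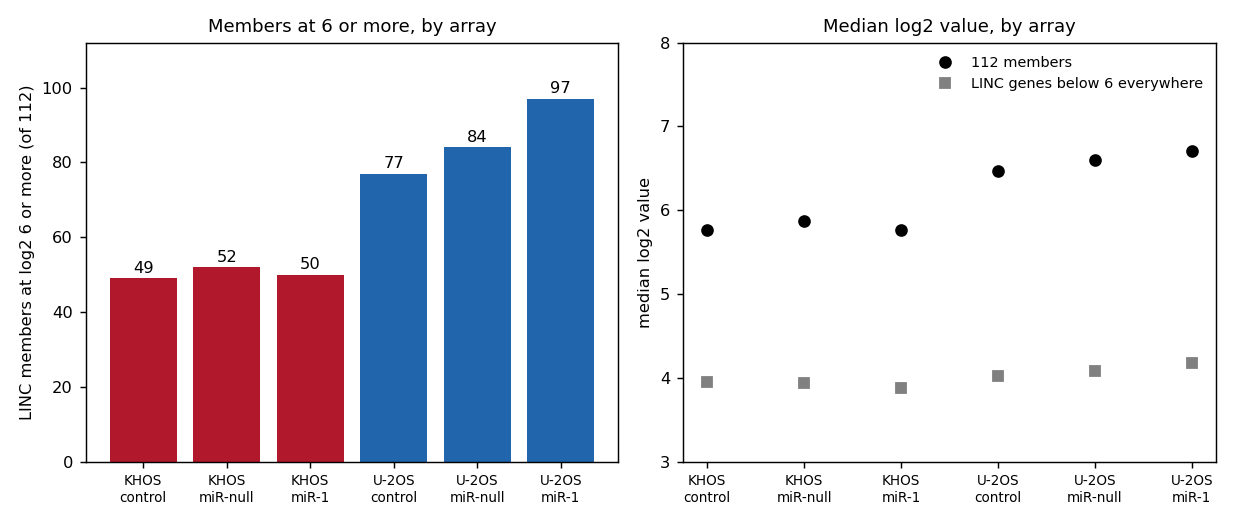
Left, the number of the 112 LINC genes with a log2 value of 6 or more on each array. Right, the median log2 value of the 112 genes and of the 729 LINC genes below 6 everywhere, by array. The 3 U-2OS arrays hold 77 to 97 of the genes at 6 or more and the 3 KHOS arrays 49 to 52, and the lower medians also stand slightly higher on the U-2OS vector arrays.

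The mean over the 6 arrays was 8 or more for 12 genes, from 6 to 8 for 49 and below 6 for 51. LINC00667 was steady over all arrays, at 8.75, 8.79 and 8.71 in KHOS (control, miR-null, miR-1, the order used throughout) and 8.80, 8.88 and 8.73 in U-2OS. Its arrays overlapped between the lines, and the fitted difference, KHOS minus U-2OS, was −0.05 ± 0.14 (SE). Its further probe sets did not read alike, with differences between the lines of −1.21, −1.25 and 1.15. LINC00339 also overlapped, at 8.86, 8.37 and 8.37 across KHOS and 8.40, 8.44 and 8.24 across U-2OS. LINC00467, described as repressed by MYCN in neuroblastoma, was measured at 7.32, 7.47 and 7.48 across KHOS and 7.10, 7.30 and 7.47 across U-2OS. The lines overlapped for LINC00467 as well, and its line difference of 0.14 ± 0.14 did not pass.

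Between the lines, most LINC genes that differed were lower in KHOS. Values were fitted with limma, as the effect of line with treatment held constant, for the 12958 genes with a mean of at least 5.106, the median of all probe sets. Of the 112 LINC genes, 108 were tested, and a gene passed at a Benjamini-Hochberg adjusted p below 0.05. Of these 108, 5 were higher and 60 lower in KHOS, against a background of 30.3% of all genes higher and 24.5% lower (54.8% in all). The median difference was −0.58 for the LINC genes and 0.00 for all genes tested (−0.002 before rounding). The arrays of the lines did not overlap for 6 of the 108 with KHOS higher and 73 with U-2OS higher, against 32.7% and 32.2% of all genes (64.8% in all). A LINC gene that reached 6 in U-2OS alone was likely to be lower in KHOS by the way it was chosen. Among the 50 genes that reached 6 in both lines, 2 were higher and 22 lower in KHOS. The other 62 LINC genes with a mean high enough for the test stayed below 6 on every array. Among them 2 were higher (3.23%) and 13 lower (21%) in KHOS. Both shares were below those of all genes, 30.3% and 24.5%.

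Genes of similar level were set side by side because weakly expressed genes as a whole leaned to U-2OS. With a mean below 6, 2 of 47 LINC genes were higher and 26 lower in KHOS, against 12.1% and 31.3% of 2582 genes. These 47 are only those that the threshold of 6 let in. Over all 109 tested LINC genes with a mean below 6, 3.67% were higher and 35.8% lower, so the share lower was near that of all genes. With a mean from 6 to 8, 2 of 49 were higher and 27 lower, against 31.1% and 27.7% of 4408 genes. With a mean of 8 or more, 1 of 12 was higher and 7 were lower, against 37.6% and 19.2% of 5968 genes. Every LINC gene with a mean of 6 or more is among the 112, so at these levels the threshold did not select between the lines. Long non-coding RNAs without a LINC symbol leaned the same way: 13.9% of 531 were higher and 36.3% lower, against 31.7% and 23.5% of 12035 protein-coding genes. These shares are descriptions of the lines' arrays and carry no test of their own.

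LINC00520 had the largest difference between the lines. It was measured at 5.52, 5.71 and 5.58 across KHOS and 10.60, 12.96 and 12.95 across U-2OS. All U-2OS arrays stood above all KHOS arrays, with the U-2OS vector arrays highest. The fitted difference was −6.57 ± 0.44, with an adjusted p of 8.91e-05. LINC00460, studied as a transcript raised in several carcinomas, was at 5.62, 4.90 and 5.22 across KHOS and 8.71, 8.49 and 8.75 across U-2OS. The groups did not overlap, the difference was −3.40 ± 0.16 with an adjusted p of 2.31e-05, and a second probe set differed by −2.09.

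LINC00839 was at 5.63, 6.09 and 6.36 in KHOS and near 9 in U-2OS, at 8.99, 9.02 and 8.96, a difference of −2.96 ± 0.18. LINC01186 was at 4.49, 4.53 and 4.20 across KHOS and 7.42, 7.16 and 7.36 across U-2OS. LINC00470 was at 4.45, 4.45 and 4.40 across KHOS and 7.17, 7.14 and 6.96 across U-2OS. These 3 genes had clear gaps between the lines and little movement with treatment in U-2OS. LINC01234 was at 3.46, 3.88 and 3.87 across KHOS and 6.97, 6.88 and 6.31 across U-2OS, with the U-2OS miR-1 array lowest of its line. Its difference of −2.99 ± 0.22 passed, as did those of LINC01186 (−2.91 ± 0.16) and LINC00470 (−2.66 ± 0.14). LINC00668, LINC00165, LINC01516 and LINC00973 also passed and are given below, because their values moved with the vector.

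Several genes with a known neighbourhood or a history in cancer work were lower in KHOS as well. LINC02381, which lies in the HOXC region, was at 8.23, 8.26 and 7.82 across KHOS and 9.20, 9.28 and 9.20 across U-2OS, a difference of −1.12 ± 0.15. LINC01116, near the HOXD genes, was at 7.15, 6.94 and 6.78 across KHOS and 8.32, 7.97 and 8.01 across U-2OS, a difference of −1.14 ± 0.14. In both genes every U-2OS array stood above every KHOS array. LINC00958, studied in bladder cancer, was at 4.89, 4.78 and 4.80 across KHOS and 7.07, 6.70 and 6.50 across U-2OS. LINC00963, studied in prostate cancer, was at 4.29, 4.43 and 4.55 across KHOS and 6.33, 5.68 and 5.71 across U-2OS. Both reached 6 in U-2OS alone, and in both the U-2OS control array was the highest. Smaller differences that passed were those of LINC01089, a transcript lowered by EGF (−0.41 ± 0.14), LINC01278 (−0.48 ± 0.17), LINC02985 (−0.60 ± 0.15) and LINC00938 (−0.58 ± 0.19).

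The 5 genes that were higher in KHOS were LINC03014, LINC01003, LINC00847, LINC01096 and LINC00621. LINC01003 was at 7.01, 6.67 and 6.78 across KHOS and 5.54, 5.28 and 5.42 across U-2OS, a difference of 1.41 ± 0.14 with an adjusted p of 0.000386. LINC00847 was at 7.51, 7.80 and 7.44 across KHOS and 6.46, 6.91 and 6.40 across U-2OS, a difference of 0.99 ± 0.14. The lines did not overlap in either gene. LINC01096 was at 6.36, 6.22 and 6.42 across KHOS and 5.88, 5.64 and 5.18 across U-2OS, a difference of 0.77 ± 0.19. LINC00621 was at 10.18, 10.06 and 10.02 across KHOS and 9.87, 9.30 and 9.26 across U-2OS, through a probe set of the x_at kind, which can bind related transcripts. Its difference of 0.61 ± 0.16 did not pass when the values were quantile-normalized again (0.34). LINC01537, too low on average to be tested, was at 5.83, 6.94 and 6.45 across KHOS and 3.50, 3.44 and 3.80 across U-2OS. Of the next differences in this direction, LINC00886 (0.47 ± 0.18) and LINC-PINT (0.40 ± 0.20) did not pass.

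**Figure D2:**
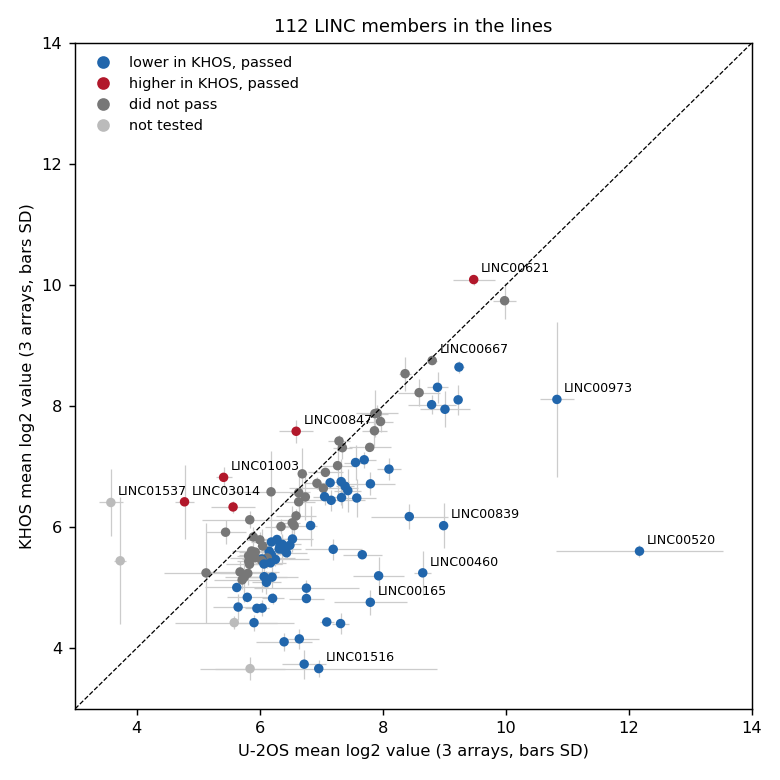
Mean log2 value of each of the 112 LINC genes in KHOS (vertical axis) against U-2OS (horizontal axis), each over 3 arrays, with bars for the SD and a dashed line of equality. Of the 108 genes tested, 60 lower in KHOS (blue) lie below the line and 5 higher in KHOS (red) above it, with LINC00520 farthest out.

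**Figure D3:**
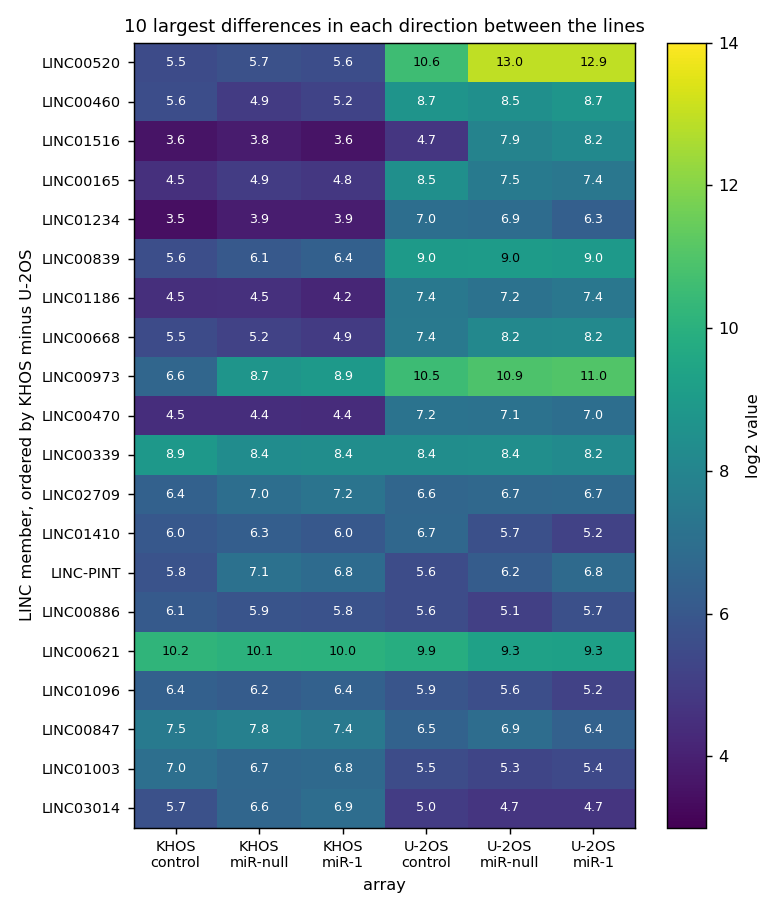
Log2 values on each array for the 10 LINC genes with the most negative and the 10 with the most positive fitted differences, KHOS minus U-2OS, with the value printed in each cell. The gap is wide in the upper 10, up to 12.96 in U-2OS against 5.71 in KHOS for LINC00520, and narrow in most of the lower 10.

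Further probe sets were present for 54 of the 112 genes. Of 101 such probe sets, 73 had a line difference of the same sign as the chosen one and 28 of the opposite sign. Among the 28 that reached 6 on some array, 18 had the same sign and 10 the opposite one. Values for a gene with a single probe set, which applied to 58 genes, have no such check.

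The neighbouring protein-coding genes in the RefSeq annotation gave a mixed picture. Some neighbours overlapped: 9 of the LINC genes overlapped a protein-coding gene, among them LINC00847 with ZFP62 (line difference 0.64) and LINC01089 with SETD1B (0.11). Among 129 pairs of a LINC gene and an adjacent or overlapping protein-coding gene that were both tested, both were lower in KHOS in 57. Both were higher in 9, and the signs were opposite in 63. Across these pairs, which share LINC genes and neighbours, the correlation of the line differences was r = 0.125 (rho = 0.194), as a description. LINC00668 lies beside LAMA1, a laminin chain, which was lower in KHOS by a difference of −6.03. LINC01516 lies beside GPR158, an orphan receptor, with a difference of −2.19. By contrast, EFNB2, an ephrin ligand beside LINC00460, was higher in KHOS by 4.85. NT5E, the ectonucleotidase CD73 beside LINC02535, was higher in KHOS by 8.05, while LINC02535 itself differed by −0.58 and did not pass. Beside LINC02381, HOXC4 was higher in KHOS by 0.71, and SMUG1 differed by 0.00 (0.002 before rounding).

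Long non-coding RNAs known by other names were read for comparison, from a list of 66 of which 32 were tested. Of these, 14 were higher and 7 lower in KHOS, against 30.3% and 24.5% of all genes, with a median difference of 0.09. The list was picked by name. It leaned to KHOS, unlike the 531 long non-coding RNAs without a LINC symbol given above (13.9% higher, 36.3% lower). MIR31HG, the host transcript of miR-31, was higher in KHOS by 2.58, and NORAD, which binds Pumilio proteins, by 1.22. MALAT1, a nuclear speckle RNA, differed by −1.71, and UCA1 by −2.14.

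Against the control arrays, no LINC gene passed for the miR-null vector alone or for both vectors together. For miR-null minus control, 0 of 108 passed in limma against 0% of all genes, and 10 had an unadjusted p below 0.05 against 9.75%. For both vectors minus control, 0 of 108 passed against 0.0232%, which is 3 genes of 12958, and 14 had an unadjusted p below 0.05 against 15.5%. The median change with the vectors was 0.08 for the LINC genes and −0.03 for all genes tested. By line, the median was −0.02 in KHOS (all genes −0.01) and 0.16 in U-2OS (all genes −0.10). The 62 tested LINC genes below 6 on every array had a U-2OS median of 0.13. Among the 108, LINC01560 had the most negative fitted change, −0.62 with miR-null and −0.64 with both vectors. By line, its vector change was −0.22 in KHOS and −1.05 in U-2OS. These contrasts share their control arrays, and each fit averages the lines. Without the KHOS control array, where the fit reads a single line's control, 21 of 108 LINC genes passed for both vectors, against 17.6% of all genes, and 15 for miR-null, against 10.4%. Without the U-2OS control array 6 passed for both vectors, against 5.57%, and 4 for miR-null, against 4%.

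LINC02806 and LINC-PINT were higher on the vector arrays of both lines. LINC02806 was at 4.37, 6.02 and 5.34 across KHOS and 4.47, 5.84 and 5.08 across U-2OS. In each line the control array was lowest and the miR-null array highest. The fitted change was 1.15 ± 0.16 with both vectors, at an adjusted p of 0.0979, and 1.51 ± 0.18 with miR-null, at an adjusted p of 0.155. Both would pass if the prior variance were allowed to follow the mean, at adjusted p of 0.0354 and 0.039. This probe set is of the s_at kind, which can match several transcripts. A second probe set differed less on the vector arrays, with changes of 0.75 in KHOS and 0.07 in U-2OS, and another gave −0.09 and 0.05.

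LINC-PINT was at 5.82, 7.09 and 6.84 across KHOS and 5.56, 6.18 and 6.82 across U-2OS. Every vector array stood above both control arrays, by means of 2.21-fold in KHOS and 1.92-fold in U-2OS. The fitted change was 1.04 ± 0.21, at an adjusted p of 0.156. Its further probe sets stayed below 5.2 and changed by −0.02 to 0.15 in KHOS and 0.23 to 0.37 in U-2OS. MKLN1, the next protein-coding gene, changed by 0.24 in KHOS and 0.00 in U-2OS (0.003 before rounding).

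A vector change of at least 1.2-fold in the same direction in both lines was found for 8 of 108 genes upward, against 4.89% of all genes, and for 3 downward, against 9.45%. The 8 were LINC00973, LINC02693, LINC01000, LINC00662, LINC01260, LINC02239, LINC-PINT and LINC02806, and the 3 were LINC01116, LINC01711 and LINC00857. Some of these 11 were named after their values were seen. LINC01000 was at 6.47, 7.20 and 7.38 across KHOS and 6.97, 7.49 and 7.34 across U-2OS, and LINC02693 at 7.43, 8.15 and 8.05 across KHOS and 7.62, 7.96 and 8.03 across U-2OS. In both genes the control array was the lowest of each line. LINC01711 went the other way, at 6.62, 6.43 and 6.28 across KHOS and 7.79, 6.92 and 6.78 across U-2OS. None of the 11 passed in the fit over both lines. Further probe sets did not all read alike, given as the change in KHOS and in U-2OS. That of LINC01000 changed by 0.34 and 0.44. Those of LINC02693 changed by −0.13 and 0.41, 0.27 and −0.43, and −0.11 and 0.21. Those of LINC00662 changed by 0.26 and −0.22, 0.46 and −0.40, −0.12 and 0.12, and 0.39 and −0.26. Changes were 0.09 and 0.05 for LINC01260, and −0.002 and −0.09 for LINC02239.

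The vector change differed between the lines for 8 LINC genes. The test was the interaction of line and vector in limma, and 8 of 108 passed, 4 with a higher and 4 with a lower change in KHOS, against 2% and 0.286% of all genes (2.28% in all). An unadjusted p below 0.05 was found for 39 of 108, against 22.3%. The highest value on any array chose the genes, so a gene raised in one line by the vector could enter through those arrays, and the share is given as a description. When the arrays were quantile-normalized again, 2 LINC genes passed, LINC00520 and LINC01516, against 0.116% of all genes. Without the KHOS miR-null or the KHOS miR-1 array 0 passed, against 0.0463% and 0.054%. With the U-2OS miR-null array left out 22 passed, against 11.8%, and without a control array the interaction could not be fitted.

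LINC01516 had the largest such difference. It was at 3.58, 3.83 and 3.59 across KHOS and 4.74, 7.92 and 8.21 across U-2OS. The KHOS arrays stayed together at a low level, and the U-2OS vector arrays stood 10.1-fold above the U-2OS control by their mean. The vector change, KHOS minus U-2OS, was −3.21 ± 0.28 with an adjusted p of 0.00433. Its line difference was −3.29 ± 0.62 over all arrays, while the control arrays alone stood at 3.58 and 4.74. GPR158 beside it changed by −0.71 in U-2OS.

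LINC00520, whose values are given above, was 5.12-fold higher on the U-2OS vector arrays than on the control. In KHOS the same ratio was 1.10-fold. The difference of the changes was −2.22 ± 0.23, with an adjusted p of 0.00667. PELI2, a ubiquitin ligase of innate signalling, flanks LINC00520 at 321737 bases and changed by 1.26 in KHOS and 1.37 in U-2OS. KTN1, nearer on the other side at 96551 bases, changed by −0.235 in KHOS and −0.385 in U-2OS.

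LINC03002 was at 5.07, 5.08 and 4.83 across KHOS and 5.78, 7.23 and 7.27 across U-2OS, a difference of the changes of −1.59 ± 0.25. LINC01210 was at 8.29, 7.78 and 7.77 across KHOS and 8.55, 9.16 and 9.31 across U-2OS, a difference of −1.20 ± 0.24. The vector arrays stood above control in U-2OS in both, while in KHOS LINC01210 stood below it. LINC00668 had the same form, at 5.51, 5.17 and 4.90 across KHOS and 7.45, 8.16 and 8.19 across U-2OS, but did not pass (−1.20 ± 0.25, adjusted p 0.0522). The further probe sets of LINC01210 read low, at no more than 3.89 and 4.18, and moved less with the vector. One changed by −0.08 in KHOS and 0.21 in U-2OS, the other by 0.05 and 0.29.

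In KHOS, LINC00973 had the largest vector change. LINC00973 and LINC01296, given below, were not matched in the RefSeq table and are named by the array's annotation alone. It was at 6.64, 8.74 and 8.95 across KHOS and 10.52, 10.93 and 11.03 across U-2OS. Both KHOS vector arrays stood well above the KHOS control, 4.62-fold by their mean, and the U-2OS vector arrays 1.38-fold above theirs. The difference of the changes was 1.75 ± 0.25, with an adjusted p of 0.0155. With these values, all U-2OS arrays remained above all KHOS arrays, and the line difference was −2.72 ± 0.35.

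LINC03014 was at 5.73, 6.61 and 6.91 across KHOS and 4.95, 4.70 and 4.69 across U-2OS. Its vector change was higher in KHOS by 1.29 ± 0.26, and among the LINC genes tested it had the largest difference in favour of KHOS (1.64 ± 0.28). LINC00622, too low on average to be tested, was at 4.24, 5.96 and 6.14 across KHOS and 3.63, 3.76 and 3.81 across U-2OS. Both had KHOS vector arrays above the KHOS control and low values in U-2OS.

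LINC00165 and LINC01296 stood below control on the U-2OS vector arrays and, by less, above control on the KHOS vector arrays. LINC00165 was at 4.53, 4.94 and 4.80 across KHOS and 8.47, 7.55 and 7.37 across U-2OS, a difference of the changes of 1.35 ± 0.25. LINC01296 was at 5.99, 6.39 and 6.14 across KHOS and 9.15, 8.07 and 8.07 across U-2OS, a difference of 1.37 ± 0.25. In both, the U-2OS control was the highest of all arrays. LINC01410 was alike in form, at 6.04, 6.28 and 6.04 across KHOS and 6.67, 5.69 and 5.15 across U-2OS, but did not pass (1.37, adjusted p 0.0738).

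**Figure D4:**
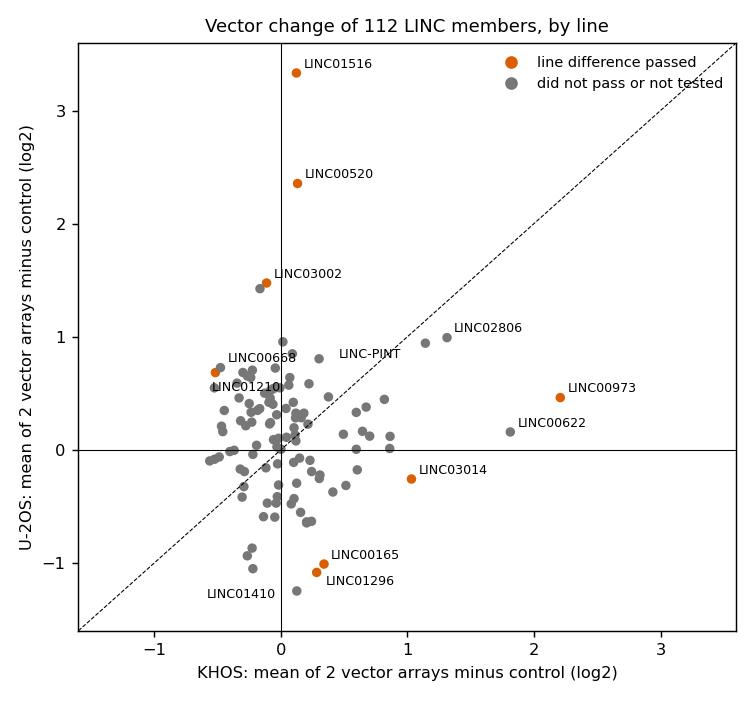
Mean of both vector arrays minus the control array (log2) for each of the 112 LINC genes, in KHOS (horizontal axis) and U-2OS (vertical axis), with a dashed line of equal change. The 8 genes whose change differed between the lines are orange; LINC01516 at 3.33 and LINC00520 at 2.36 in U-2OS stand near 0 in KHOS, and LINC00973 at 2.21 in KHOS stands at 0.46 in U-2OS.

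**Figure D5:**
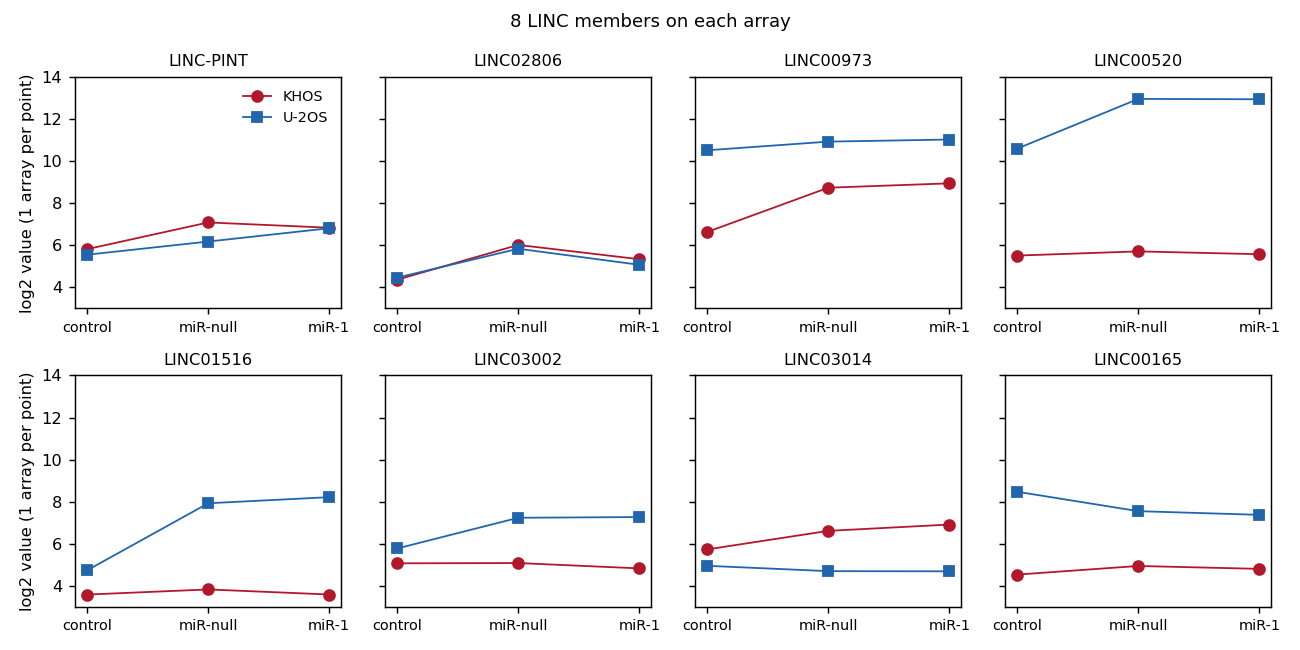
Log2 values of 8 LINC genes on the control, miR-null and miR-1 arrays of KHOS (red) and U-2OS (blue), 1 array per point, with lines joining the arrays of a cell line. LINC-PINT and LINC02806 stand above control in both lines, LINC00520, LINC01516 and LINC03002 in U-2OS, and LINC00973 and LINC03014 in KHOS, and LINC00165 stands below control in U-2OS.

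Over the 112 genes, the vector changes of the lines were nearly unrelated, with r = 0.021 and rho = −0.097, against r = 0.252 and rho = 0.226 over all genes tested. These correlations are across genes, which are not independent replicates, and describe 3 arrays a line. A change of at least 1.2-fold was upward in U-2OS and downward in KHOS for 8 of 108 genes, against 1.57%, and upward in KHOS and downward in U-2OS for 4, against 5.13%. The way the genes were chosen could favour the first class, since 26 of the 112 entered through the U-2OS vector arrays only. Of the 62 tested LINC genes below 6 on every array, 0 were in the first class and 2 in the second. These counts are descriptions. Both vector arrays were at least 2-fold above control for 2 of 108 genes in KHOS, against 1.85% of all genes, and for 3 in U-2OS, against 0.733%. They were at least 2-fold below control for 0 in KHOS, against 0.116%, and for 1 in U-2OS, LINC01296, against 2.43%.

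No LINC gene passed between the miR-1 and the miR-null vector. In limma 0 of 108 passed, against 0% of all genes, and 3 had an unadjusted p below 0.05, against 0.602%. The median difference was −0.01 (−0.015 before rounding) for the LINC genes and −0.05 (−0.045) for all genes tested. The median 95% interval of a single LINC gene reached 0.51 to each side before any adjustment. Passing the adjusted test needed more than that: LINC02806 did not pass at −0.72.

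The miR-1 arrays were at least 1.2-fold below the miR-null arrays in both lines for 5 of 108 genes, against 2.2% of all genes, and above them for 1, LINC02535, against 0.903%. The 5 were LINC02806, LINC01569, LINC00920, LINC01806 and LINC00847. LINC02806, whose values are given above, differed by −0.72 ± 0.18 in the fit. LINC01569 was at 5.68, 5.98 and 5.60 across KHOS and 6.001, 6.58 and 5.99 across U-2OS, with the miR-null array highest in each line and miR-1 close to control. Its fitted difference of −0.49 ± 0.18 did not pass. LINC01806 was at 4.17, 4.32 and 3.98 across KHOS and 6.85, 6.81 and 6.27 across U-2OS, with the miR-1 array lowest in each. LINC00920 was at 4.58, 4.94 and 4.53 across KHOS and 6.02, 5.72 and 5.21 across U-2OS. LINC02535 was at 4.88, 5.59 and 5.88 across KHOS and 6.02, 5.90 and 6.17 across U-2OS, a difference of 0.28 ± 0.26. Whether these transcripts hold matches to the miR-1 seed was not tested.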

How the data were processed

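RNA of 6 pooled cultures was hybridised to 6 arrays. The authors deposited log2 values for 54675 probe sets, made with RMA in Qlucore per the series' design text; no genome build was stated. Probe sets were named from the platform annotation: 41091 had 1 gene symbol, 1801 several and 11721 none, and 62 controls were left out. The probe set with the highest mean stood for each gene. The members and lists were chosen with earlier results of these data known. limma (version 3.58.1, R 4.3.3) was fitted to the 12958 genes with a mean of at least 5.106, the median of all probe sets, with terms for treatment and line over all 6 arrays, which leaves 2 residual degrees of freedom. A further fit had the line by vector interaction. p-values were adjusted with Benjamini-Hochberg over all genes tested, with 0.05 as the threshold; errors are the fit's SE. Each line and treatment had 1 array, so p-values rest on the spread left after this fit. Described genes were taken from those with the 10 largest line differences in each direction and the 5 largest in each other contrast. Also used were the 10 highest means and a list of LINC genes known from other work. Not every gene that met these rules is described, and other genes are named where a small count held them. RefSeq matched 110 of the 112 genes; LINC00973 and LINC01296 keep the platform's symbol. The precision is limited by the number of arrays. Alternatives were the normalization, the level filter, the prior variance, the probe sets tested, the design text's Mann-Whitney rule, and each array left out. Added after seeing the data were the vectors as 1 term and a miR-1 contrast with the vector change free to differ by line.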

Additional observations from a re-analysis of the deposited data

Results flagged for a closer look

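The vector change differed between KHOS and U-2OS by limma's interaction test for 8 LINC genes, given as KHOS minus U-2OS on the log2 scale. It was lower in KHOS for LINC01516 (−3.21, adjusted p 0.00433), LINC00520 (−2.22, adjusted p 0.00667), LINC03002 (−1.59, adjusted p 0.0231) and LINC01210 (−1.20, adjusted p 0.0447). It was higher in KHOS for LINC00973 (1.75, adjusted p 0.0155), LINC01296 (1.37, adjusted p 0.0369), LINC00165 (1.35, adjusted p 0.0365) and LINC03014 (1.29, adjusted p 0.0481). Each line contributed 1 control and 2 vector arrays, so the test's residual spread held none between control arrays.

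The vector arrays lay on opposite sides of control in the lines for 43 of the 112 genes at any size. They did so by at least 1.2-fold on each vector array for 6. Of these 6, LINC00165 and LINC01210 passed the interaction test and LINC00491, LINC00623, LINC00668 and LINC01134 did not. No share over all genes stands beside the counts of 43 and 6, which are descriptions. The choice of genes could add to them, since 26 of the 112 entered through the U-2OS vector arrays only. LINC00668 differed by −1.20 (adjusted p 0.0522). LINC00623, read through a probe set of the x_at kind at 9.40, 9.94 and 9.89 across KHOS and 10.19, 9.88 and 9.87 across U-2OS, differed by 0.83 (adjusted p 0.0913).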

How the results depend on the processing

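Of 65 LINC genes that differed between the lines, 16 did with a filter at the 75th percentile of the probe set means, where fewer genes are tested, and 0 by the design text's exact Mann-Whitney rule, whose smallest p for 3 against 3 arrays is 0.1. Leaving out 1 array gave 44 to 79. For miR-null minus control and both vectors minus control, 0 became 1 each with the prior variance as a trend of the mean (LINC02806), and leaving out 1 array gave 0 to 15 and 0 to 21. For miR-1 minus miR-null every setting run gave 0. The 8 line differences in the vector change became 2 with further quantile normalization, 13 with the prior variance as a trend of the mean and 4 with all probe sets tested; leaving out 1 array gave 0 to 22. Of 60 single-gene results, 7 reversed under at least 1 setting. Between the lines, LINC02709 (−0.047) and LINC00339 (−0.182) did with further quantile normalization. With single arrays left out, the line difference of LINC01410 ran from −0.022 (without either line's miR-1 array) to 0.741. The miR-1 minus miR-null difference ran from −0.125 to 0.858 for LINC01144 and from −0.031 to 0.635 for LINC03124, lowest without U-2OS miR-1. The change with both vectors ran from −1.248 to 0.126 for LINC01410 and from −1.084 to 0.283 for LINC01296, highest without the U-2OS control. Other than where stated, the cause was not tested. The genes would number 276 with a level of 5, 51 with 7, and 61 by a mean of 6 or more. With 1 array per group, signal near background limits the lowest values.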
